A study of Mus musculus with 6 samples.

Results

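Foxp1, Foxp2 and Foxp4 are 3 of the 24841 genes listed for single nuclei of the mouse striatum, and they are described here by class of nucleus and by Celsr3 genotype. They were chosen by name as the Foxp transcription factors of the brain, and Foxp2 in addition because its genotype effect differed between D1 and D2 medium spiny neurons in these same libraries. That contrast is therefore given for Foxp2 as a description, with no test. Foxp3, the member of the family that marks regulatory T cells, was counted among the other forkhead genes.

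Foxp proteins are forkhead transcription factors that act mainly as repressors. They bind DNA through the forkhead domain as homodimers or heterodimers with one another, pair through a zinc finger and leucine zipper, and recruit corepressors such as CtBP and the NuRD complex. In the striatum, Foxp1 is known as an abundant factor of medium spiny neurons (MSNs), the GABAergic projection neurons that carry either the dopamine receptor D1 (the direct pathway) or D2 (the indirect pathway). Foxp2 is known for its role in speech and vocal learning and for its presence in deep cortical layers, and Foxp4 is the least studied of the 3 in this tissue.

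Nuclei came from flash-frozen striatal dissections in 2 genotypes, wild type (3 libraries) and Celsr3 heterozygous (3 libraries), Celsr3 being the gene of an atypical cadherin of neuronal wiring. The labels call each library a biological replicate, which was taken to mean a separate mouse, and they name no age, sex, strain, allele or Cre line. The 6 libraries shared a sequencing lane.

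After removal of doublet-like nuclei, 7612, 7768 and 7977 wild-type and 7722, 8229 and 8700 heterozygous nuclei remained (48008 in all), with library medians of 2456 to 3011 genes per nucleus. Values are depth-corrected UMI values per gene and nucleus, and a level is the mean over the nuclei of 1 library. Of the cell barcodes, 274 occurred in more than 1 library, on 549 nuclei. Classes were named "X-like" from marker genes, and 15 classes had at least 20 nuclei in every library. The 6 pan-MSN markers summed to 44.0 to 47.7 per nucleus in the 8470 D1 MSN-like and to 46.7 to 50.2 in the 7117 D2 MSN-like nuclei. The naming of these classes required a mean of the same markers of at least 2.0, so the sums are no independent check of the tissue label. Beside these striatal neurons there were 2856 glutamatergic neuron-like and 1139 layer 6 cortical neuron-like nuclei, and 6 unnamed clusters held another 9128. In the targeted gene, the D1 MSN-like level of Celsr3 was 0.150, 0.170 and 0.178 in wild-type and 0.0778, 0.102 and 0.101 in heterozygous libraries, and every heterozygous library lay below every wild-type one. The log2 change was -0.77 ± 0.13 (SE; limma, adjusted p = 0.134). It was -0.63 ± 0.16 in D2 MSN-like and -0.72 ± 0.15 in glutamatergic neuron-like nuclei, and -0.11 ± 0.25 in GABAergic interneuron-like nuclei, where the groups overlapped (adjusted p = 0.283, 0.635 and 0.980). Celsr3 was also lower without overlap in D2 MSN-like nuclei, as were 5.63% of the genes of that class. For D1 MSN-like nuclei that share is not given here.

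The 3 genes sit apart in the genome. In GRCm38, Foxp2 lies on chromosome 6 from 14901349 to 15441977 on the plus strand, Foxp1 on chromosome 6 from 98925338 to 99522721 on the minus strand, and Foxp4 on chromosome 17 from 47867133 to 47924645 on the minus strand. The longest runs of identical bases that the coding sequence of Foxp4 shares with those of the other members are shown 5′ to 3′, as the stretches in which Foxp4 is most like each of them. Both lie in the stretch that encodes the zinc finger.
Foxp1 and Foxp4: tgcaagtggccaggctgtgag
Foxp2 and Foxp4: tgcaagtggccaggctgtga
These runs of 21 and 20 bases were also the longest that Foxp4 shared with each in the whole transcripts. Whether reads of one member were counted for another was not tested. Overlapping genes are a further source of doubt. Foxp1 shares its strand and span with Gm20696 and Gm20705, and Foxp4 is overlapped by the antisense gene Gm15556. Of these partners, Gm20705 and Gm15556 are listed with values of their own and Gm20696 is not. Whether the counting used strand is not given in the sources used here, so reads of these partners may be included in the values.

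Across the 15 classes, each member had its own order of levels. Levels are compared between classes for 1 gene at a time and never between genes, because the values are not corrected for length. Foxp1 was highest in D2 MSN-like nuclei, Foxp2 in eccentric MSN-like nuclei and Foxp4 in eccentric MSN-like nuclei as well. Eccentric MSNs are a minor group of spiny neurons, marked here by Otof, Casz1, Tshz1, Col11a1, Pcdh8 and Cacng5, that stands apart from both pathways. None of the 3 members was used in the clustering or in the marker lists.

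**Figure D1:**
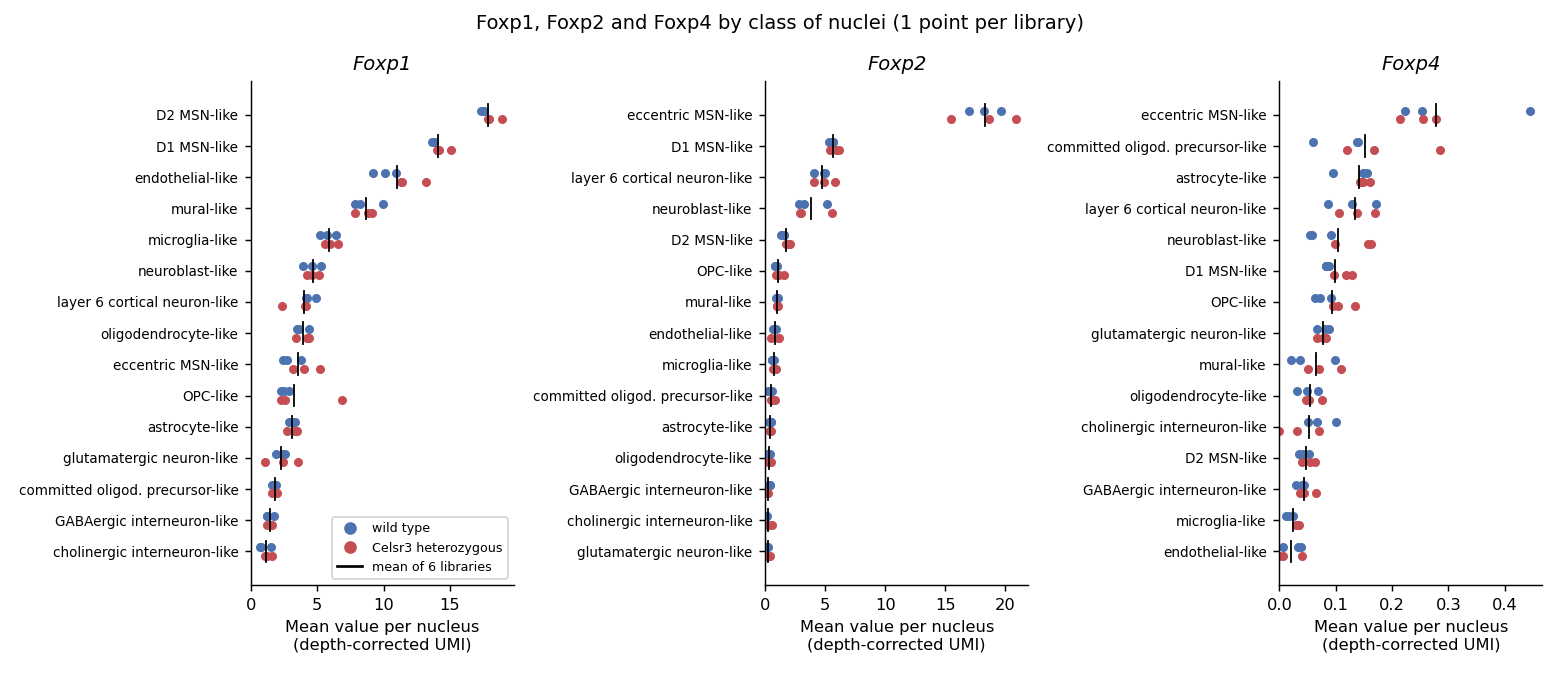
Mean value per nucleus (depth-corrected UMI, x axis) of each member in the 15 classes (y axis, ordered by the mean of 6 libraries, black line), with 1 point per library in blue for wild type and red for Celsr3 heterozygous. Foxp1 leads in D2 and D1 MSN-like nuclei at 17.9 and 14.1, while Foxp2 stands at 18.3 in eccentric MSN-like nuclei and at 5.68 or less in every other class shown.

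Foxp1 was highest in the MSNs of the indirect and direct pathways. Its level was 17.9 ± 0.577 in D2 MSN-like and 14.1 ± 0.526 in D1 MSN-like nuclei (SD, n = 6 libraries), and the D2 level was higher in 6 of 6 libraries, by 1.27-fold (range 1.25 to 1.28). A value above 0 was present in 99.9% of the nuclei of both classes, but also in 99.9% of microglia-like and 99.4% of endothelial-like nuclei, and in 87.3% of eccentric MSN-like ones, so this share does not set the D1 and D2 classes apart. Below them came the vascular and immune classes: endothelial-like nuclei at 11.0 ± 1.35, mural-like nuclei at 8.65 ± 0.834 and microglia-like nuclei at 5.90 ± 0.522. Their medians were 1903, 1752 and 1895 genes per nucleus, against 3265 in D2 MSN-like nuclei. The unnamed clusters are outside this order. The highest of them, cluster 0 (1348 nuclei, median of 1723 genes), stood at 7.12 ± 1.24. From D2 MSN-like down to neuroblast-like nuclei, at 4.64 ± 0.504, each class exceeded the next in 6 of 6 libraries. The following 5 classes, from layer 6 cortical neuron-like nuclei at 3.97 to astrocyte-like nuclei at 3.11, did not differ from their neighbours beyond the spread between libraries. Eccentric MSN-like nuclei were among these, at 3.52 ± 1.02, so that D1 MSN-like nuclei held 4.0 times as much Foxp1 (range 2.90 to 5.69). The lowest levels were those of local interneurons, 1.41 ± 0.232 in GABAergic and 1.13 ± 0.381 in cholinergic interneuron-like nuclei.

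One library stood apart in a low-count class. The OPC-like level of Foxp1 was 6.86 in heterozygous replicate 1, where the class held 29 nuclei, and 2.22 to 2.87 in the other 5 libraries. The position of oligodendrocyte precursors in the order therefore rests on that library.

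Markers of MSNs were also read in other nuclei. The pan-MSN list, which includes Ppp1r1b, Rgs9 and Pde10a, stood in the non-neuronal classes at 7.01% to 25.03% of its mean in D1 and D2 MSN-like nuclei. Against that, Foxp1 stood at 68.9% ± 7.86 in endothelial-like, 54.2% ± 5.195 in mural-like and 37.0% ± 3.33 in microglia-like nuclei, where the pan-MSN list reached 20.9%, 25.03% and 20.5%. Endothelial-like, mural-like and microglia-like nuclei thus held more Foxp1 than the MSN list in proportion. GABAergic interneuron-like nuclei held less, with Foxp1 at 8.79% ± 1.39 and the list at 19.3% ± 3.43. Foxp2 also stood below the list in some classes, at 5.34% against 14.5% in glutamatergic neuron-like and 9.14% against 12.98% in oligodendrocyte-like nuclei. The share of the list is therefore given for comparison and not as a lower limit for the members. Whether this RNA was carried over from MSNs or made in these nuclei was not tested.

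Foxp2 had the widest contrast between kinds of spiny neuron. In eccentric MSN-like nuclei its level was 17.0, 19.7 and 18.2 in wild-type and 15.5, 18.6 and 20.9 in heterozygous libraries, a mean of 18.3 ± 1.90. That was 3.22 times the D1 MSN-like level (range 2.86 to 3.52, higher in 6 of 6 libraries). D1 MSN-like nuclei, at 5.68 ± 0.314, exceeded D2 MSN-like nuclei, at 1.72 ± 0.295, by 3.31-fold (range 2.86 to 4.07, 6 of 6 libraries). The order of Foxp1 and Foxp2 over the 3 spiny classes was thus opposite, D2 above D1 above eccentric for Foxp1 and the reverse for Foxp2.

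Among the named classes other than spiny neurons, Foxp2 was highest in layer 6 cortical neuron-like nuclei and in neuroblast-like nuclei. The unnamed clusters are outside this order. Their Foxp2 level was 1.87 in cluster 10 (2863 nuclei), 1.83 in cluster 26 (697 nuclei) and 1.47 in cluster 0 (1348 nuclei). It was 0.278, 0.200 and 0.176 in clusters 11, 21 and 38. The means of clusters 21 and 26 leave out a heterozygous library without a value. Layer 6 cortical neuron-like nuclei stood at 4.77 ± 0.669, below D1 MSN-like nuclei in 6 of 6 libraries. That was 23.6 times the other glutamatergic neuron-like nuclei (range 13.3 to 58.7), which were lowest of the named classes at 0.202 ± 0.125. Neuroblast-like nuclei varied between libraries, with 5.13, 3.26 and 2.80 in wild-type and 2.90, 5.60 and 3.00 in heterozygous libraries, and could not be ordered against layer 6 cortical neuron-like nuclei (4 of 6 libraries). The 7 non-neuronal classes ran from 0.339 in oligodendrocyte-like to 1.03 in OPC-like nuclei. In proportion to D1 and D2 MSN-like nuclei, Foxp2 reached 9.14% to 28.0% in these classes, beside the 7.01% to 25.03% of the pan-MSN list. Fibroblast-like nuclei, 229 in all and too few per library for a test, stood higher at 3.22 ± 1.06, with Foxp1 at 10.6 ± 2.60 and Foxp4 at 0.278 ± 0.143.

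The share of nuclei with a Foxp2 value above 0 was 95.7% ± 0.953 in D1 MSN-like nuclei and 51.4% ± 5.34 in those of the D2 class. It was 52.2% ± 10.2 in microglia-like, 53.1% ± 9.48 in endothelial-like and 66.1% ± 8.69 in mural-like nuclei, classes with medians of 1895, 1903 and 1752 genes per nucleus against 3265 in D2 MSN-like nuclei. The D2 share was no higher than in these non-neuronal classes, and it is not read as expression. The D2 level of 1.72 did exceed the 0.708, 0.842 and 0.983 of those 3 classes in every library.

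Per nucleus, eccentric MSN-like nuclei formed a group of high Foxp2 and low Foxp1. A Foxp2 value of 10 or more was present in 86.3% ± 8.68 of them, in 12.5% ± 2.07 of D1 MSN-like nuclei and in 2.83% ± 0.909 of the D2 class. Foxp1 of 10 or more was present in 6.76% ± 6.39 of eccentric, 82.1% ± 2.11 of D1 and 93.6% ± 1.81 of D2 MSN-like nuclei. Foxp1 and Foxp2 were both above 0 in 95.6% ± 0.956 of D1, 51.4% ± 5.34 of D2 and 86.0% ± 4.44 of eccentric MSN-like nuclei. Within D1 MSN-like nuclei the Foxp1 level was 11.5 ± 1.07 where Foxp2 was 0, and 14.2 ± 0.566, 14.1 ± 0.658 and 14.5 ± 0.442 where Foxp2 was 1 to 4, 5 to 9 and 10 or more. The Foxp2-negative D1 nuclei were few (365, with 37 in the smallest library), and above 0 the Foxp1 levels of the bins lay within 1 SD of each other. In eccentric MSN-like nuclei Foxp1 was 5.10 ± 2.67 where Foxp2 was 5 to 9 (4 nuclei in the smallest library) and 3.09 ± 0.565 where it was 10 or more. The 5 to 9 bin ran from 2.29 in wild-type replicate 1 to 9.5 in heterozygous replicate 3, so these bins could not be told apart.

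**Figure D2:**
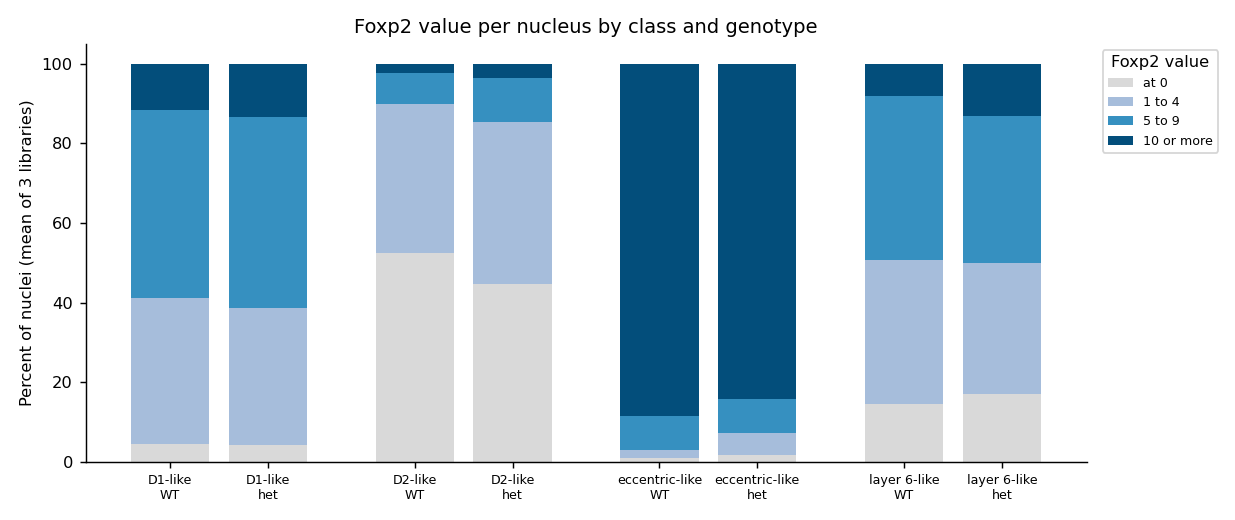
Percent of nuclei (y axis, mean of 3 libraries per bar) with a Foxp2 value of 0, 1 to 4, 5 to 9, or 10 or more, for 4 neuronal classes in wild type (WT) and Celsr3 heterozygotes (het). Dark blue, a value of 10 or more, fills most of the eccentric bars, and grey, a value of 0, covers 52.6% of wild-type and 44.6% of heterozygous D2 MSN-like nuclei.

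Foxp4 was read at low levels in every class. Its level was 0.278 ± 0.0849 in eccentric MSN-like nuclei, 0.0995 ± 0.0192 in D1 MSN-like nuclei and 0.0479 ± 0.0106 in those of the D2 class. As with Foxp2, the eccentric level exceeded the D1 level (2.79-fold, range 1.99 to 5.06) and the D1 level exceeded the D2 level (2.08-fold, range 1.69 to 2.43), each in 6 of 6 libraries. Committed oligodendrocyte precursor-like, astrocyte-like and layer 6 cortical neuron-like nuclei came next at 0.152, 0.142 and 0.133 and could not be ordered among themselves. Microglia-like and endothelial-like nuclei were lowest, at 0.0250 and 0.0207. Choroid plexus-like nuclei, outside the 15 classes because 3 of the libraries held all 238 of them, had a higher Foxp4 level than any of the 15, at 0.370 ± 0.0770 (SD, n = 3). Most neighbours in the order of Foxp4 kept their places in fewer than 6 libraries.

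Genes whose pattern over the 15 classes was most like each member were found by Pearson's r of log2 levels among 13514 genes. These r values describe 15 classes that share the same 6 libraries. For Foxp1 they were Hpca (r = 0.94), Tmem158 (0.92), Ppp3ca (0.92), Scn4b (0.91) and Arf3 (0.91). Hpca encodes the calcium sensor hippocalcin, Ppp3ca a catalytic subunit of calcineurin, and Scn4b a sodium channel beta subunit. All 5 were highest in D1 or D2 MSN-like nuclei. For Foxp2 they included G630016G05Rik (0.81), Meis2 (0.80), Syt6 (0.77) and Pds5b (0.76), with Meis2, a homeodomain factor, at 28.5 in neuroblast-like and 17.5 in eccentric MSN-like nuclei. Syt6, a synaptotagmin gene and one of the layer 6 markers searched, was highest in D2 MSN-like nuclei at 1.45. For Foxp4 they were 1110051M20Rik (0.80), Pcdh10 (0.79), Sema5b (0.78), Pcdh7 (0.76) and Sema6d (0.75), of which Pcdh10 and Pcdh7 encode protocadherins and Sema5b and Sema6d semaphorins. Between members, r was 0.49 for Foxp1 with Foxp2, 0.52 for Foxp2 with Foxp4 and -0.23 for Foxp1 with Foxp4.

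The MSN-like classes were not uniform. D1 MSN-like nuclei formed clusters 1, 7 and 8, led by Gpr139, Tcfl5 and Impg1, and D2 MSN-like nuclei clusters 2, 3 and 19, led by Drd2, 9230009I02Rik and Calcr. The 5 leading genes were Gpr139, Gm42705, Dkk2, Gm6260 and Il20ra for cluster 1, Tcfl5, Pdyn, Cftr, Gm15592 and Gm34667 for cluster 7, and Impg1, Gm16083, Cd55b, Zp3r and Gm49906 for cluster 8. They were Drd2, Ankk1, Oprd1, Adora2a and Gm30313 for cluster 2, 9230009I02Rik, Gm49906, Zp3r, Drd2 and Tll1 for cluster 3, and Calcr, P2ry1, Stk31, Syt10 and Pde1c for cluster 19. Striosomes and matrix are the interleaved compartments of the striatum, and in cluster 8 all 6 striosome markers searched (Oprm1, Kremen1, Sema5b, Tac1, Pdyn and Lypd1) were over 1.5-fold above the rest of the class, with 5 of 6 matrix markers lower. Cluster 3 had 4 of 6 striosome markers higher (Kremen1, Sema5b, Tac1 and Lypd1) and 4 of 6 matrix markers lower (Epha4, Id4, Sv2b and Sgk1). The markers did not all single out these clusters: Oprm1 and Pdyn were higher in cluster 19 and Pdyn in cluster 7, both of which had lower Kremen1 and Sema5b.

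Foxp2 was highest in clusters 8 and 3, the clusters of each class with the most striosome markers raised, and was low in cluster 19, where 2 were raised. In D1 MSN-like nuclei it was 7.496 ± 0.544 in cluster 8, 5.69 ± 0.322 in cluster 7 and 5.13 ± 0.2497 in cluster 1, and cluster 8 exceeded each of the others in 6 of 6 libraries. In D2 MSN-like nuclei the contrast was steeper: 4.07 ± 0.619 in cluster 3 against 1.12 ± 0.218 in cluster 2 and 1.22 ± 0.360 in cluster 19. Cluster 3 exceeded cluster 2 by 3.63-fold (range 2.84 to 4.33) and cluster 19 by 3.34-fold (range 2.64 to 5.76), in 6 of 6 libraries. In clusters 2 and 19 the level came close to the 0.983 of mural-like nuclei, and Foxp2 was 0 in 54.2% ± 6.22 of the nuclei of cluster 2 and in 19.2% ± 4.26 of those of cluster 3.

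Foxp1 also varied between these clusters. It was 16.4 ± 0.513 in cluster 8, 15.3 ± 0.735 in cluster 1 and 11.4 ± 0.682 in cluster 7, and 19.7 ± 0.451 in cluster 3, 18.6 ± 0.734 in cluster 2 and 12.99 ± 1.28 in cluster 19. Clusters 8 and 3 were again highest in 6 of 6 libraries, by 1.08-fold over cluster 1 and 1.44-fold over cluster 7, and by 1.06-fold over cluster 2 and 1.52-fold over cluster 19. Among D1 MSN-like nuclei Foxp4 was also highest in cluster 8, with 0.152 ± 0.0202 against 0.0936 in cluster 7 and 0.0893 in cluster 1 (6 of 6 libraries). In D2 MSN-like nuclei, Foxp4 in cluster 3 exceeded cluster 2 in 3 of 6 libraries.

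**Figure D3:**
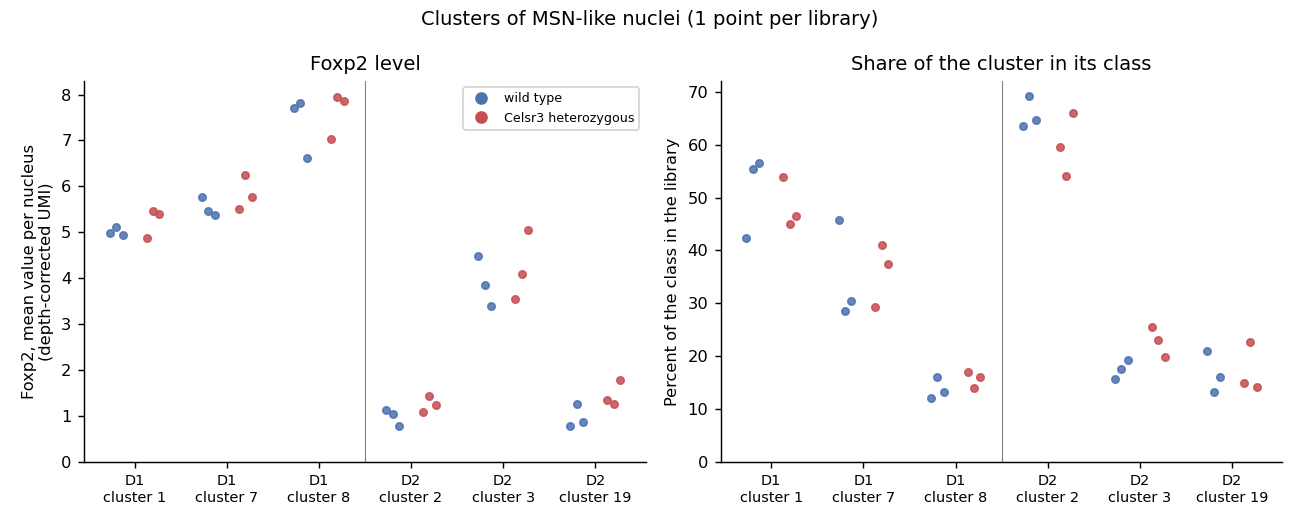
Left, Foxp2 mean value per nucleus (depth-corrected UMI, y axis) in the 3 D1 and 3 D2 MSN-like clusters; right, the percent of its class that each cluster holds; 1 point per library, blue wild type and red Celsr3 heterozygous. Cluster 3 stands above the other D2 clusters on the left, and on the right it holds 15.6% to 19.2% of wild-type and 19.8% to 25.6% of heterozygous D2 MSN-like nuclei.

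By genotype, no member passed the test in any class in which it was tested. Heterozygous libraries were compared with wild-type ones by limma on log2(level + 0.01), with Benjamini-Hochberg adjustment over all genes of the class, and a gene with an adjusted p under 0.05 was called. At that threshold 0.0149% of 13421 genes were called in D1 MSN-like nuclei, 0.00785% of 12745 in D2 MSN-like nuclei and 0% of 14401 in all nuclei, and an unadjusted p under 0.05 was found for 10.1%, 8.54% and 9.93% of them. Over all nuclei, fewer cells of a type and less RNA per cell cannot be told apart.

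Foxp1 did not pass the test in either MSN class or over all nuclei. Over all nuclei its level was 6.92, 9.25 and 7.02 in wild-type and 8.35, 7.85 and 6.88 in heterozygous libraries, with overlapping groups and a log2 change of 0.00 ± 0.14 (SE; adjusted p = 0.996). In D1 MSN-like nuclei it was 13.7, 13.8 and 13.8 against 15.1, 14.1 and 14.1, and the change was 0.07 ± 0.06 (adjusted p = 0.715). Among D2 MSN-like nuclei it was 17.3, 17.5 and 17.6 against 18.9, 17.9 and 17.9, with a change of 0.06 ± 0.06 (adjusted p = 0.821). The genotypes did not overlap in either MSN class, the heterozygous libraries being higher, as for 11.7% of genes in the D1 class and 8.88% in the D2 class, and heterozygous replicate 1 was highest. That separation did not hold under another scaling. With levels divided by size factors (the median ratio of each library to the mean of the libraries over genes), the changes were 0.0081 in D1 and 0.023 in D2 MSN-like nuclei, and heterozygous replicates 2 and 3 lay below every wild-type library in both classes. Without heterozygous replicate 1 both changes were 0.036. The genotype effect in D1 minus that in D2 MSN-like nuclei was 0.01 ± 0.03 (adjusted p = 0.990), a comparison in which 0.063% of 12693 genes were called.

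Foxp4 did not pass the test either, although its mean was higher in heterozygous libraries in both MSN classes. Over all nuclei its level was 0.0661, 0.0732 and 0.0860 in wild-type and 0.0899, 0.0949 and 0.1005 in heterozygous libraries, and the groups did not overlap, as for 14.9% of genes in that direction. The log2 change was 0.31 ± 0.11 (adjusted p = 0.466). In D1 MSN-like nuclei it was 0.0830, 0.0832 and 0.0877 against 0.0971, 0.118 and 0.128, again without overlap, as for 11.7% of genes in that direction, with a change of 0.39 ± 0.13 (adjusted p = 0.392). For Foxp4 in D2 MSN-like nuclei the groups overlapped, at 0.0352 to 0.0519 and 0.0399 to 0.0638, with a change of 0.23 ± 0.20 (adjusted p = 0.795). That value rested on single libraries: with heterozygous replicate 3 or 1 left out it was 0.10 or 0.38, and leaving out replicate 1 or 3 of the wild type gave 0.12 or 0.34. The difference of the effect between the classes was 0.16 ± 0.15 (adjusted p = 0.960). With a pseudocount of 0.1, close to the level of Foxp4 itself, the D1 change was 0.21, the D2 change 0.091 and that over all nuclei 0.16.

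Foxp2 was chosen for its behaviour in the same contrast, so its values are given without a test. In D1 MSN-like nuclei the level was 5.67, 5.65 and 5.29 in wild-type and 5.42, 6.14 and 5.94 in heterozygous libraries, and the groups overlapped. In D2 MSN-like nuclei it was 1.58, 1.57 and 1.30 against 1.75, 2.01 and 2.08, and the lowest heterozygous library exceeded the highest wild-type one, as for 8.88% of the genes of that class. The log2 change was 0.07 ± 0.07 (SE) for D1 and 0.39 ± 0.10 for D2, and the D1 change minus the D2 change was -0.32 ± 0.05. Over all nuclei it was 2.00, 2.38 and 1.93 against 2.44, 2.68 and 2.07, a change of 0.19 ± 0.12. That change was 0.089 with clusters weighted equally and 0.076 with nuclei matched on the genes detected, but 0.33 with array weights, which weight each library by how well it fits the model. The D1 change was 0.012 with size-factor scaling and 0.14 with array weights. The threshold that chose Foxp2 lies on the adjusted p of the D1-minus-D2 difference and not on its size. Foxp2 was 1 of 8 genes inside it, Ptprm, with a difference of 0.48 ± 0.09, was just inside, and Slco5a1, with 0.45 ± 0.09, just outside.

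**Figure D4:**
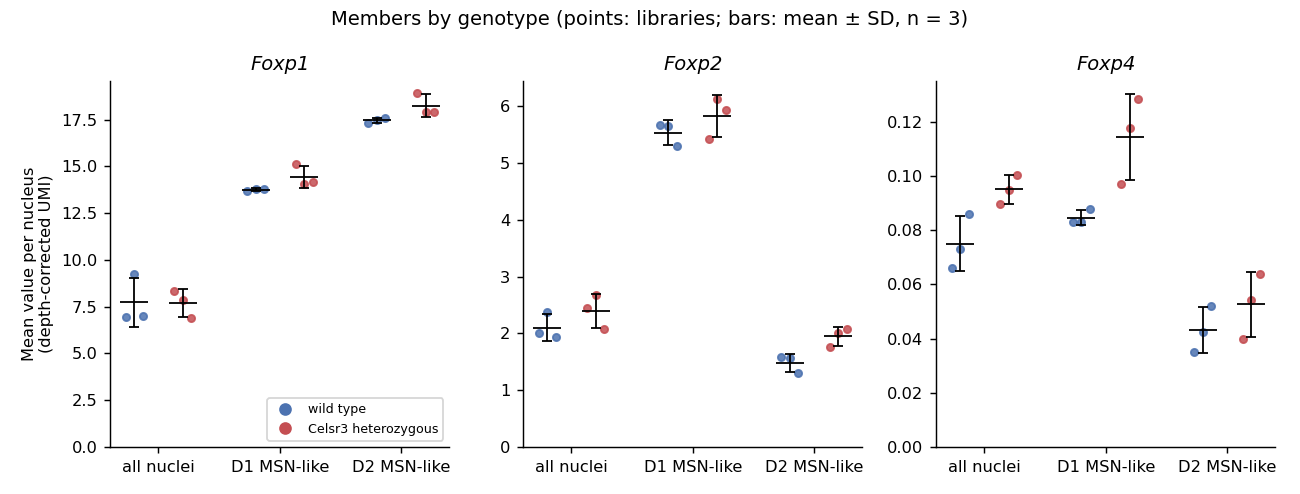
Mean value per nucleus (depth-corrected UMI, y axis from 0) of Foxp1, Foxp2 and Foxp4 over all nuclei and in either MSN-like class, with 1 point per library, blue wild type and red Celsr3 heterozygous, and bars for the mean ± SD (n = 3). The Foxp2 groups separate in D2 MSN-like nuclei (1.30 to 1.58 against 1.75 to 2.08) and overlap in D1 MSN-like nuclei.

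The makeup of the D2 class differed in the mean between the genotypes. Cluster 3, in which Foxp2 is high, held 15.6%, 17.5% and 19.2% of D2 MSN-like nuclei in wild-type and 25.6%, 23.1% and 19.8% in heterozygous libraries, means of 17.4% ± 1.82 and 22.8% ± 2.90 (SD, n = 3 each). Within each genotype, over 3 libraries, the larger shares of cluster 3 went with the lower D2 levels of Foxp2. Within clusters, the log2 change of Foxp2 was 0.35 in cluster 2, 0.11 in cluster 3 and 0.60 in cluster 19. The groups were apart only in cluster 19, narrowly, with 1.265 in the highest wild-type and 1.267 in the lowest heterozygous library. The share of all genes that were apart was not taken within clusters. In the whole D2 class it was 8.88% in that direction. In the D1 clusters the log2 change of Foxp2 was 0.06, 0.08 and 0.05. With the clusters weighted equally, the D2 change was 0.24 and the D1-minus-D2 difference -0.18. With clusters held at their pooled shares, a weighting chosen after the data were seen, they were 0.27 and -0.20. With each library's own shares but cluster levels fixed at their 6-library means, also chosen after the data were seen, the D2 change was 0.13. With nuclei matched on the number of genes detected, the D2 change and the difference were 0.24 and -0.23. Beyond these weightings, the part of cluster makeup in the D2 change was not tested.

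Markers of other classes were followed beside Foxp2. Foxp2 was higher in heterozygous libraries in 7 of 7 non-neuronal classes, by log2 changes of 0.05 to 0.77, with overlapping groups in each and none called. Of all genes tested in these classes, 49.6% to 58.0% were higher. Leaving out 1 library turned the sign in astrocyte-like, endothelial-like and mural-like nuclei. The pan-MSN list in these classes had changes from -0.22 in committed oligodendrocyte precursor-like nuclei, where Foxp2 had its 0.77, to 0.20 in OPC-like nuclei, and 5 of 7 lay between 0.0043 and 0.078. The 6 D1 markers (Drd1, Tac1, Pdyn, Isl1, Eya1 and Slc35d3) summed to 0.486 to 0.617 in wild-type and 0.565 to 0.648 in heterozygous D2 MSN-like nuclei, against 3.05 to 3.97 and 3.34 to 3.75 in D1 MSN-like nuclei. The 6 eccentric markers summed to 0.509 to 0.594 and 0.536 to 0.714 in D2 MSN-like nuclei. These ranges overlapped between the genotypes. Of the D1 markers, Tac1 was over 1.5-fold higher in cluster 3 and Pdyn in cluster 19 than in the rest of the D2 class. In D2 MSN-like nuclei the 8 microglia markers summed to 0.865 to 0.917 in wild-type and 0.777 to 0.831 in heterozygous libraries. These groups did not overlap, as for 5.63% of single genes of the class in that direction. The 8 astrocyte markers were 1.87 to 2.16 and 1.60 to 1.93. The 8 oligodendrocyte markers were 5.08 to 5.58 in wild-type and 3.48, 3.71 and 6.57 in heterozygous libraries, and the 8 glutamatergic markers were 0.865 to 1.02 and 0.939 to 1.23. These lists did not share one direction, and the part of background RNA or of misplaced nuclei in the Foxp2 values was not tested.

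In the other classes, which played no part in its choice, Foxp2 was tested in 12 and called in none, with 3 unadjusted p values under 0.05. GABAergic interneuron-like nuclei had the smallest p. Their Foxp2 level was 0.411, 0.438 and 0.242 in wild-type and 0.253, 0.138 and 0.176 in heterozygous libraries, which overlapped, with a log2 change of -0.91 ± 0.26. The limma p was 0.0052 before adjustment (6.56% of 8898 genes were under 0.05), and the adjusted p was 0.502. That class joined clusters 20, 27 and 36. Cluster 20 was led by Vip, 9630002D21Rik, Kcnmb2, 4930488N15Rik and Kcns3, cluster 27 by Sfta3-ps, Gna14, Kit, Moxd1 and Gm31218, and cluster 36 by Nos1, Nxph2, Chodl, Tacr1 and Npy. Cluster 27 held 4.05 times the Foxp2 of cluster 20 and made up 19.4% to 54.0% of the class across libraries. Within cluster 27, Foxp2 was 0.833, 0.648 and 0.329 in wild-type and 0.649, 0.200 and 0.282 in heterozygous libraries, and the groups overlapped.

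Committed oligodendrocyte precursor-like nuclei had a Foxp2 change of 0.77 ± 0.32 (adjusted p = 0.774), which was 0.45 without wild-type replicate 1, and microglia-like nuclei one of 0.31 ± 0.13 (adjusted p = 0.915), both with overlapping groups and levels under 1. Before adjustment both were under 0.05, as were 5.89% and 5.31% of the genes of these classes. In 3 classes with high Foxp2 the change was near 0: -0.0030 ± 0.14 in eccentric MSN-like nuclei (adjusted p = 0.998), 0.07 ± 0.15 in layer 6 cortical neuron-like nuclei (adjusted p = 0.938) and 0.02 ± 0.23 in neuroblast-like nuclei (adjusted p = 0.999). 

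Foxp1 was tested in 13 other classes and called in none, with changes from -0.37 to 0.48. The highest was that of eccentric MSN-like nuclei, at 2.40, 3.74 and 2.68 in wild-type and 5.199, 3.14 and 3.98 in heterozygous libraries, which overlapped. The log2 change was 0.48 ± 0.21 (limma, adjusted p = 0.956), and its unadjusted p was under 0.05, as for 5.06% of genes of the class. Without heterozygous replicate 1 the change was 0.29, and with the 3 members added to the clustering genes, which left 192 instead of 276 nuclei of that replicate in the class, it was 0.19. In that library, eccentric MSN-like nuclei with a Foxp2 value of 1 to 4 held 10.9 of Foxp1 and those with 10 or more held 3.53. Endothelial-like nuclei had 9.18, 10.9 and 10.1 in wild-type and 11.3, 13.2 and 11.4 in heterozygous libraries, without overlap, as for 5.24% of 5435 genes in that direction (log2 change 0.25 ± 0.15, adjusted p = 0.966). Layer 6 cortical neuron-like nuclei went the other way, by -0.37 ± 0.20 (adjusted p = 0.749), with 2.36 in heterozygous replicate 2, where they numbered 59, and 4.06 to 4.93 in the other libraries. Without that library the change was -0.10, and with array weights it was -0.16.

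Foxp4 could be tested in only 4 other classes, because its summed value averaged under 30 over the 6 libraries in the rest. Its changes were 0.20 ± 0.18 in astrocyte-like, 0.22 ± 0.26 in oligodendrocyte-like, -0.05 ± 0.22 in glutamatergic neuron-like and -0.24 ± 0.25 in eccentric MSN-like nuclei (adjusted p = 0.896 to 0.998). The eccentric level was 0.222, 0.254 and 0.444 in wild-type and 0.214, 0.277 and 0.255 in heterozygous libraries, so wild-type replicate 3 was highest. Without it the change was 0.057. The sum depends on the number of nuclei as well as the level. Layer 6 cortical neuron-like nuclei, at 0.133, were thus untested, while D1 MSN-like nuclei, at 0.0995, were tested. Below the filter no test was run, and the means differed in both directions. Microglia-like nuclei had 0.0118, 0.0175 and 0.0242 in wild-type and 0.0298, 0.0327 and 0.0342 in heterozygous libraries. Endothelial-like nuclei had a mean of 0.0262 in wild-type and 0.0152 in heterozygous libraries, with overlapping groups.

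**Figure D5:**
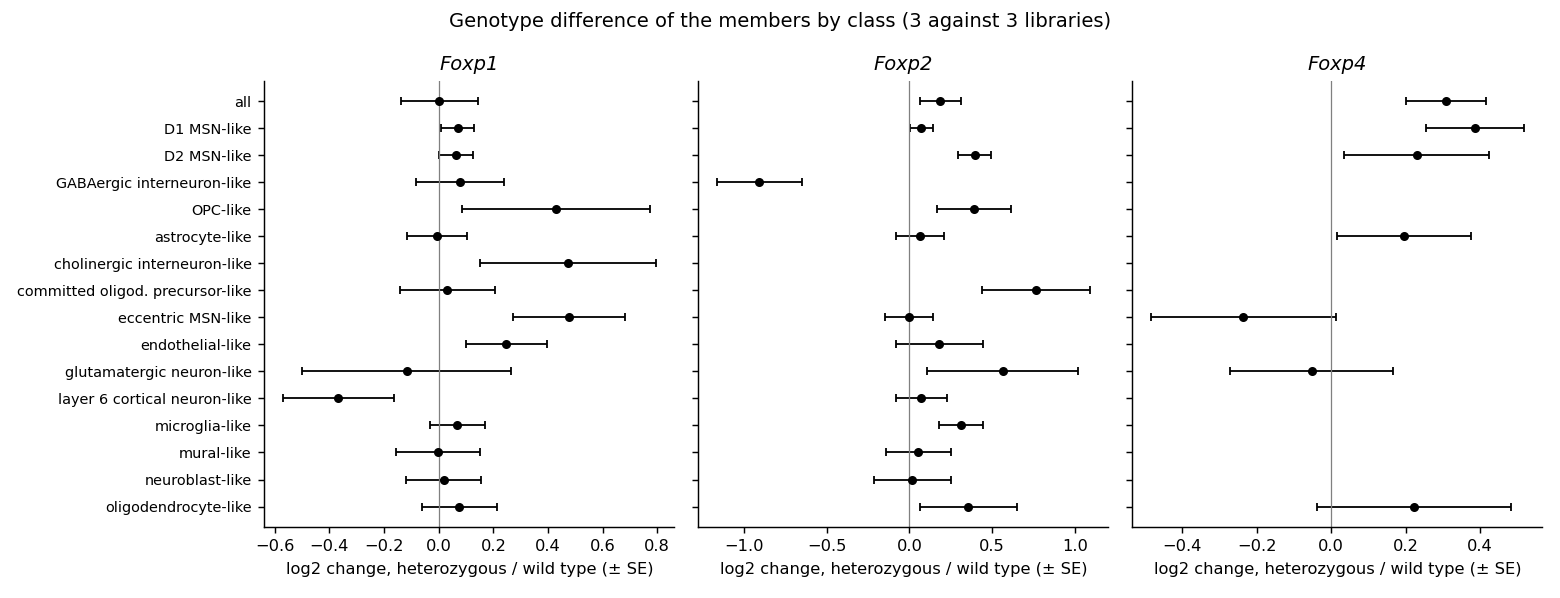
Log2 change between Celsr3 heterozygous and wild-type libraries (x axis, point and SE, 3 against 3 libraries) of Foxp1, Foxp2 and Foxp4 in all nuclei and in each class tested (y axis), with a grey line at 0. The points farthest from 0 belong to GABAergic interneuron-like (-0.91) and committed oligodendrocyte precursor-like (0.77) nuclei for Foxp2, neither of which was called.

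Of the other forkhead genes, 26 of 32 searched were listed, and they differed in the class where they were highest. Foxq1, Foxc1 and Foxf2 were highest in endothelial-like nuclei at 0.649, 0.298 and 0.224, Foxd1 in mural-like nuclei at 0.340, and Foxm1, a factor of dividing cells, in neuroblast-like nuclei at 0.161. Foxo1, a target of insulin signalling, was highest in MSN classes, at 1.46 in D1, 1.41 in D2 and 0.209 in eccentric MSN-like nuclei. Foxo3 and Foxk2 were also highest in MSN classes, at 0.614 in D1 and 0.583 in D2 MSN-like nuclei. Foxp3 did not exceed 0.0150 in any class.

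By genotype none of the 10 forkhead genes tested was called. Of these, 8 were higher in heterozygous D1 and 8 in heterozygous D2 MSN-like nuclei, with medians of 0.10 and 0.10 on the log2 scale beside 0.06 and 0.04 over all genes tested, of which 65.4% and 60.1% were higher. Foxo1 was 1.19, 1.41 and 1.40 in wild-type and 1.46, 1.63 and 1.69 in heterozygous D1 MSN-like nuclei, a change of 0.26 ± 0.09 (adjusted p = 0.403). In D2 MSN-like nuclei the change was 0.22 ± 0.07 (adjusted p = 0.435). Foxo3, a relative of Foxo1, had log2 changes of 0.27 ± 0.10 and 0.26 ± 0.09 (adjusted p = 0.424 and 0.445). For both genes the groups did not overlap in either class, as for 11.7% of genes in D1 and 8.88% in D2 MSN-like nuclei, but with size-factor scaling those of Foxo1 overlapped in D2 MSN-like nuclei.

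Among the 23 partners and corepressors of Foxp proteins, none was called either. In D1 MSN-like nuclei 17 of 23 were higher in heterozygous libraries and in D2 MSN-like nuclei 14 of 22, with medians of 0.07 and 0.03, beside 65.4% and 60.1% of all genes tested. Over all nuclei 21 of 23 (91.3%) were higher, beside 69.1% of all genes, with a median of 0.085 beside 0.07. Satb1, a chromatin organiser that can bind with Foxp proteins, was 0.104 ± 0.00882 against 0.141 ± 0.0171 in D1 and 0.150 ± 0.0216 against 0.210 ± 0.0332 in D2 MSN-like nuclei, log2 changes of 0.40 ± 0.13 and 0.46 ± 0.15 (adjusted p = 0.372 and 0.409). Chd4, the helicase of NuRD, had a log2 change of 0.24 ± 0.09 in D1 (adjusted p = 0.405) and the zinc finger factor Yy1 one of 0.25 ± 0.10 in D2 MSN-like nuclei (adjusted p = 0.538). By level, Tbr1, Satb1 and Sox5 were highest in layer 6 cortical neuron-like nuclei, at 0.450, 1.14 and 6.69.

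Of the 10 genes tied to Foxp1 or Foxp2 in published work, 7 were tested and none was called. In each MSN class 5 were higher and 2 lower (71.4%, beside 65.4% and 60.1% of all genes tested), with medians of 0.08 in D1 and 0.01 in D2 MSN-like nuclei. Cntnap2, which encodes a neurexin-related adhesion molecule known as a Foxp2 target, was 29.4, 30.04 and 29.9 in wild-type and 28.8, 28.9 and 27.2 in heterozygous D2 MSN-like nuclei, without overlap, as for 5.63% of genes in that direction, a log2 change of -0.07 ± 0.06 (adjusted p = 0.800). Vldlr, the gene of a reelin receptor, had a log2 change of 0.17 ± 0.11 in D1 MSN-like nuclei (adjusted p = 0.624). Kcnj4, a potassium channel gene, had log2 changes of 0.10 ± 0.09 in D1 and 0.13 ± 0.11 in D2 MSN-like nuclei (adjusted p = 0.729 and 0.775).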

How the data were processed

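Libraries of nuclear RNA were made by the 3′ v3.1 protocol of 10x Genomics, per the labels' protocols. The authors deposited whole numbers per gene and nucleus, handled here as a score, that is, UMI values after a correction for depth. The values themselves gave this unit: totals per nucleus varied by only 10.7% (4523 to 10638) and 10.0% of nuclei held their low genes at 2 or more and never at 1. Depth before the correction is unknown, so no counting interval is given. The submitters' processing notes name Cell Ranger, Seurat 4.1, mm10 and GRCm38 without roles. The aligner's settings, strand use and filters on nuclei are not given in the sources used here. Gene positions and transcripts came from the GENCODE annotation of GRCm38.

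Nuclei were clustered on 2000 variable genes, without the 3 members, with 30 principal components, 15 neighbours and Leiden clustering at resolution 1.0 into 39 clusters, in Python 3.11.15 with scanpy 1.11.5, igraph 0.11.9 and scikit-learn 1.9.0. Scrublet called 0.317% to 0.824% of nuclei, under 0.5% in some libraries, so 826 nuclei (1.69%) were dropped by their doublet score: each one above 0.25, and all of the 3 clusters in which more than 40% were. A cluster was named from at least 3 markers over 2-fold up at a mean above 0.1, plus 40% of its markers or 1 in its top 10 genes, unless a rival class scored as well. MSN classes also needed a mean of the pan-MSN markers of at least 2.0 and layer 6 ones a layer 6 mean above 3.0. These limits were set after the clusters were seen. Of D1 and D2 MSN-like nuclei, 95.7% kept their class when called by their own markers.

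Levels per library were compared as log2(level + 0.01) by trended empirical Bayes in limma 3.58.1 under R 4.3.3, 3 against 3 libraries with no covariate, for genes with a mean of at least 0.02 and a summed value that averaged at least 30 over the 6 libraries. The D1-minus-D2 difference was fitted with the library as a block. All adjusted p values are limma's. The fold changes are on this scale and understate those of low genes. The procedure was tested on simulated data. Where nothing shows that libraries came from separate mice, p values measure only the spread between them.

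The members, gene lists, markers and tests were chosen with earlier results of these data known. The members were named in every class. List genes were named where called, and otherwise the 2 of smallest p in each MSN class. The 5 genes most like each member over classes and the 5 leading genes of each cluster singled out were named, and other genes with levels were chosen after their values were seen. Some genes and sequences that these rules would name are not reported here.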

Additional observations from a re-analysis of the deposited data

Results flagged for a closer look

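For Foxp2, the log2 genotype effect in D1 minus that in D2 MSN-like nuclei, -0.32, was marked by a threshold on its adjusted p. That threshold is also the one that chose Foxp2, so the mark follows from the choice. Foxp2 was chosen for this contrast, so the value is a description and no test is given. In D2 MSN-like nuclei 3 of 3 heterozygous libraries lay above all wild-type ones, as for 8.88% of the genes of that class, and in D1 MSN-like nuclei the groups overlapped.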

How the results depend on the processing

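No genotype test of Foxp1 or Foxp4, and none of Foxp2 in the other classes, was called under any alternative run. Levels in D1, D2, eccentric MSN-like and layer 6 cortical neuron-like nuclei were taken again only under alternatives that change the nuclei or libraries. They moved by less than 1 SD with the members among the clustering genes and with doublet-like nuclei kept. In D1 and D2 MSN-like nuclei this also held with matched genes and with nuclei called by their own markers. Leaving out 1 of 6 libraries cannot move a mean by 1 SD, so it is no check of the levels. Whether the replicate numbers pair the libraries could not be settled from 3 libraries per genotype. Same-numbered libraries correlated at 0.266, 0.017 and 0.187 in D1 MSN-like nuclei. The 0.266 of replicate 1 was the highest of all pairs, but not every library correlated best with its own number. With the replicate number as a block, the Foxp4 change in D1 MSN-like nuclei stayed 0.39 (adjusted p = 0.325, range over all alternatives 0.0594 to 0.861), and genes called over the whole table went from 2 to 3 in D1 and in D2 MSN-like nuclei from 1 to 5. Over all alternatives those counts ran from 1 to 537 in D1 and 0 to 154 in D2 MSN-like nuclei, 0 to 32 in all nuclei and 0 to 27 for the difference; the highest came from array weights (537 and 154), matched genes (32) and leaving out heterozygous replicate 3 (27). Without wild-type replicate 1, D1 and D2 MSN-like nuclei gave 233 and 123. Foxo3 in D1 MSN-like nuclei was called with array weights only (adjusted p = 0.0434, range 0.0434 to 0.902), so that 1 forkhead gene instead of 0 was called there.

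The Foxp2 changes over all nuclei and in D1 and D2 MSN-like nuclei, and their difference, kept their sign but not their size under the alternatives run. Over all nuclei the change was 0.33 with array weights, 0.12 with size-factor scaling, 0.089 with equal cluster weights, 0.078 with pooled shares and 0.076 with matched genes. In D1 MSN-like nuclei it was 0.14 with array weights, 0.012 with size-factor scaling, 0.013 with matched genes, and 0.036 to 0.12 with 1 library left out (heterozygous replicates 2 and 1). The D2 change was 0.24 with equal cluster weights and 0.24 with matched genes, and the D1-minus-D2 difference was -0.18 with equal weights, -0.20 with pooled shares (added after the data were seen) and -0.23 with matched genes. Leaving out 1 library gave a difference of -0.35 to -0.26. Some changes turned in sign, and not all of them were near 0. In the main fit Foxp1 was 0.43 in OPC-like and -0.12 in glutamatergic neuron-like nuclei, and Foxp4 was 0.22 in oligodendrocyte-like nuclei. With size-factor scaling Foxp1 was -0.069 over all nuclei, its D1-minus-D2 difference was -0.015 and Foxp2 in eccentric MSN-like nuclei was 0.0067. With array weights Foxp1 was -0.0076 in OPC-like, 0.066 in astrocyte-like, 0.12 in glutamatergic neuron-like and 0.020 in mural-like nuclei, and Foxp4 was -0.10 in oligodendrocyte-like nuclei. With the members among the clustering genes Foxp1 was 0.016 in mural-like and -0.011 in neuroblast-like nuclei, its D1-minus-D2 difference was -0.0059 and Foxp2 in eccentric MSN-like nuclei was 0.13. With doublet-like nuclei kept Foxp1 was 0.030 in astrocyte-like and -0.0056 in neuroblast-like nuclei, and with equal cluster weights its D1-minus-D2 difference was -0.0063. The cause was not tested.

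Leaving out 1 library in turn, Foxp1 ranged from -0.071 to 0.14 over all nuclei, -0.026 to 0.25 in GABAergic interneuron-like, -0.073 to 0.74 in OPC-like, -0.081 to 0.10 in astrocyte-like, -0.053 to 0.12 in committed oligodendrocyte precursor-like, -0.49 to 0.38 in glutamatergic neuron-like, -0.0065 to 0.15 in microglia-like, -0.073 to 0.10 in mural-like and -0.089 to 0.12 in neuroblast-like nuclei. Foxp2 ranged from -0.084 to 0.14 in astrocyte-like, -0.10 to 0.11 in eccentric MSN-like, -0.027 to 0.53 in endothelial-like, -0.058 to 0.20 in layer 6 cortical neuron-like, -0.016 to 0.12 in mural-like and -0.29 to 0.27 in neuroblast-like nuclei. Foxp4 ranged from -0.012 to 0.31 in astrocyte-like, -0.43 to 0.057 in eccentric MSN-like, -0.15 to 0.026 in glutamatergic neuron-like and -0.0074 to 0.44 in oligodendrocyte-like nuclei. Depth before correction is unknown, and Foxp4 lies near the filter in most classes.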
